A study of Mus musculus with 6 samples.

Results

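Genes that copy DNA in S phase were followed in mouse fibrosarcoma cells, tumor cells of fibroblast-like origin from the C57BL/6 strain, that carry Rras2(Q72L), a mutant form of the RAS-related GTPase Rras2. The 49 genes were listed by name from their known work in replication, with earlier results of these data known. Of them, 48 were found among the 19505 genes on the arrays. Mcm7 was not analysed here. Both groups carried the mutant Rras2. Controls had received pLKO, a lentiviral vector, without an insert (3 arrays, numbered 1 to 3), and knockdown cells had received shRNA 89, directed at Rras2 (3 arrays, numbered 4 to 6). A single shRNA was used and no label ties an array to its own culture, so each p-value reflects array-to-array spread that could be purely technical, and a batch that followed the array numbers cannot be told apart from the knockdown. The question is how the replication transcripts read with and without the knockdown of Rras2.

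Before S phase, the origin recognition complex, Cdc6 and Cdt1 load the ring of MCM proteins, the core of the replicative helicase, onto DNA, a step called licensing. Cdc45, the GINS complex and Mcm10 then help turn the loaded ring into an active helicase, and polymerases with their clamp, clamp loader and single-strand binding protein copy the strands. Ribonucleotide reductase and thymidylate enzymes supply the deoxynucleotides. Many of these genes are known targets of E2F transcription factors, which are released when growth signals, RAS signalling among them, drive cells out of G1.

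Sequence upstream of the genes was searched for the words of E2F and NF-Y, factors known to drive cell-cycle genes. RefSeq promoters (GRCm38.p6) were at hand for 39 of the 48 genes, and the 250 bases before each start were read on both strands for the E2F words TTTCCCGC and TTTGGCGC and for the NF-Y word CCAAT. An E2F word was found in 5 of 39 genes (12.8%), against 1.51% of all 27025 genes with a promoter and 1.30% of all 32851 promoters. CCAAT was found in 24 of 39 (61.5%) against 37.5% of all genes and 33.8% of all promoters. These backgrounds take in genes that were not measured here, and no share over measured genes alone was taken. An E2F word was also found in 12 of 82 other replication genes (14.6%), and of 25 mitosis genes 0 held one and 19 held CCAAT. A match is a description of the sequence, not a binding site. Other forms of these words and bases past the start were not searched, so a gene without a word was not shown to lack sites.

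The upstream bases of the 5 genes with an E2F word are shown, and those of Rrm2, the gene whose difference came nearest the threshold without passing, which held none. Capitals mark the words as read on the gene's strand, with GCGCCAAA and GCGGGAAA the E2F words and ATTGG the NF-Y word of the other strand. Mcm6 held 2 E2F words, 110 to 103 and 47 to 40 bases before its start. The regions are chr1:128359706-128359955 (minus strand) for Mcm6, chrX:93632156-93632405 (minus) for Pola1, chr11:98907901-98908150 (plus) for Cdc6, chr8:75109259-75109508 (plus) for Mcm5, chr8:95633309-95633558 (plus) for Gins3 and chr12:24708004-24708253 (plus) for Rrm2.
Mcm6: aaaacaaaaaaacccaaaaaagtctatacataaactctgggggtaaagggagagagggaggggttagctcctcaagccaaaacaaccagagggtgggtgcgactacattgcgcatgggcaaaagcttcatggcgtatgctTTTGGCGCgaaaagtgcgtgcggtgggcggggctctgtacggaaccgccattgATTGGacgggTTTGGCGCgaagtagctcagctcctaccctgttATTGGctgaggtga
Pola1: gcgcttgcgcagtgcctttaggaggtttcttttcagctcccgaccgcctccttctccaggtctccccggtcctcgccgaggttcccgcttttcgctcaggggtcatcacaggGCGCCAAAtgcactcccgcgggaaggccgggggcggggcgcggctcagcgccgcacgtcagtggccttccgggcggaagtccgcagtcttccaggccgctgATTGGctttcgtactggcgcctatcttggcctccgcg
Cdc6: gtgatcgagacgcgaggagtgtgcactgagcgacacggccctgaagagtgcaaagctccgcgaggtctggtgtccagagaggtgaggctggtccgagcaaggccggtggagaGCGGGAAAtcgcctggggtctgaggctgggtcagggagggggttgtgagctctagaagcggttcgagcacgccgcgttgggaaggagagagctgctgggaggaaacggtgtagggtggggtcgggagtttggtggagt
Mcm5: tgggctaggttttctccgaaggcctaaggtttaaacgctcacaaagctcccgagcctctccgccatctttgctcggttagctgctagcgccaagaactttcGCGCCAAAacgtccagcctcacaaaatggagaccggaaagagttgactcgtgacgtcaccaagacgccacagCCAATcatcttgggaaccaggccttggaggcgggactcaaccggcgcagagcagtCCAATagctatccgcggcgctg
Gins3: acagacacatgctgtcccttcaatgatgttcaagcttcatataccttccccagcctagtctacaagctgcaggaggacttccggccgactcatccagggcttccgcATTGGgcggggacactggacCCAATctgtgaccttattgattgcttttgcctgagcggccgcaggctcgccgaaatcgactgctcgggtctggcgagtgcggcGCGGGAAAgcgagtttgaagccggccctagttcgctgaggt
Rrm2: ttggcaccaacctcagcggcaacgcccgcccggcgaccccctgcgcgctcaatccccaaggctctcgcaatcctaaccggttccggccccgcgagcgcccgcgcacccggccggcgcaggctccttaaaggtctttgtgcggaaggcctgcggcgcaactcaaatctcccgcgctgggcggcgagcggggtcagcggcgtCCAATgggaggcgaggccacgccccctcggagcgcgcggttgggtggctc

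The knockdown itself was read first. Signals here and below are log2, and limma is a linear model fitted to all genes together. Rras2 was 10.67, 10.75 and 10.82 on the pLKO arrays and 9.09, 9.69 and 9.21 on the shRras2 arrays, so that 31.8%, 48.1% and 34.6% of the mean control signal remained on arrays 4, 5 and 6. No knockdown array reached a control, and the log2 difference was -1.41 ± 0.14 (SE; limma adjusted p = 0.00163; exact two-sided permutation p = 0.1, the smallest that 3 against 3 arrays can give). Median signals were 7.22 to 7.28 on the 6 arrays. Of 15 fibroblast and mesenchyme markers, 9 were above 7.92, the 95th percentile of the 5222 negative-control probe sets, among them Vim, Fn1, Sparc and Prrx1. The other 6, Col1a2, Thy1, Fap, Lum, Dcn and Twist1, were below it in both groups. In limma 4 of the 15 rose, the dim Dcn among them, and 0 fell. The summed log2 signal of the 15 was 15.57 to 15.59 in controls and 15.67 to 15.73 in the knockdown. The defining markers of leukocytes, endothelium, epithelium and adipocytes were all below that percentile (0 of 7, 0 of 6, 0 of 6 and 0 of 5 above). Skeletal muscle markers moved with the group: 12 of 16 rose and 0 fell, and their summed signal was 10.64 to 10.78 in controls and 12.53 to 13.36 in the knockdown (log2), with 4 of the 16 above that percentile on average over the arrays. Whether these muscle transcripts have a part in the lower replication signals was not tested, and in bulk RNA fewer cells in S phase and less RNA per cell cannot be told apart.

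Across the set, differences were small and nearly all in 1 direction. In the knockdown 46 of the 48 genes had a lower mean signal than in the controls, where 53.2% of all genes did, with a median log2 difference of -0.18 (knockdown minus control). A single gene, the helicase subunit gene Mcm6, fell past the threshold, to 57.9% of the control signal, and 0 rose. Calls were made with limma at an adjusted p under 0.05, and at that threshold 5.21% of all genes were called, 2.22% lower and 2.99% higher. The share of 1 in 48 lies near that background. At an unadjusted limma p under 0.05, 18 of the 48 were lower and 0 higher, where 10% and 9.11% of all genes were. The 3 knockdown arrays lay wholly below the 3 controls for 21 of the 48 genes and wholly above for 1, where 13.9% and 11.6% of all genes did so.

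Nearly all of these transcripts gave a clear signal, so the same background was taken over bright genes too. For 44 of the 48 both group means lay above the negative-control percentile. Over the 7885 genes bright in both groups the median difference was -0.02, 55.7% were below 0, 15.3% were lower at an unadjusted limma p under 0.05, and 22.6% had knockdown arrays wholly below the controls. Among the 44 members bright in both groups the median was -0.17, 42 were below 0, 16 were lower at that p and 20 had groups that did not overlap with the knockdown below. The counts over members describe 48 genes read on the same 6 arrays, and they are not independent of each other.

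**Figure D1:**
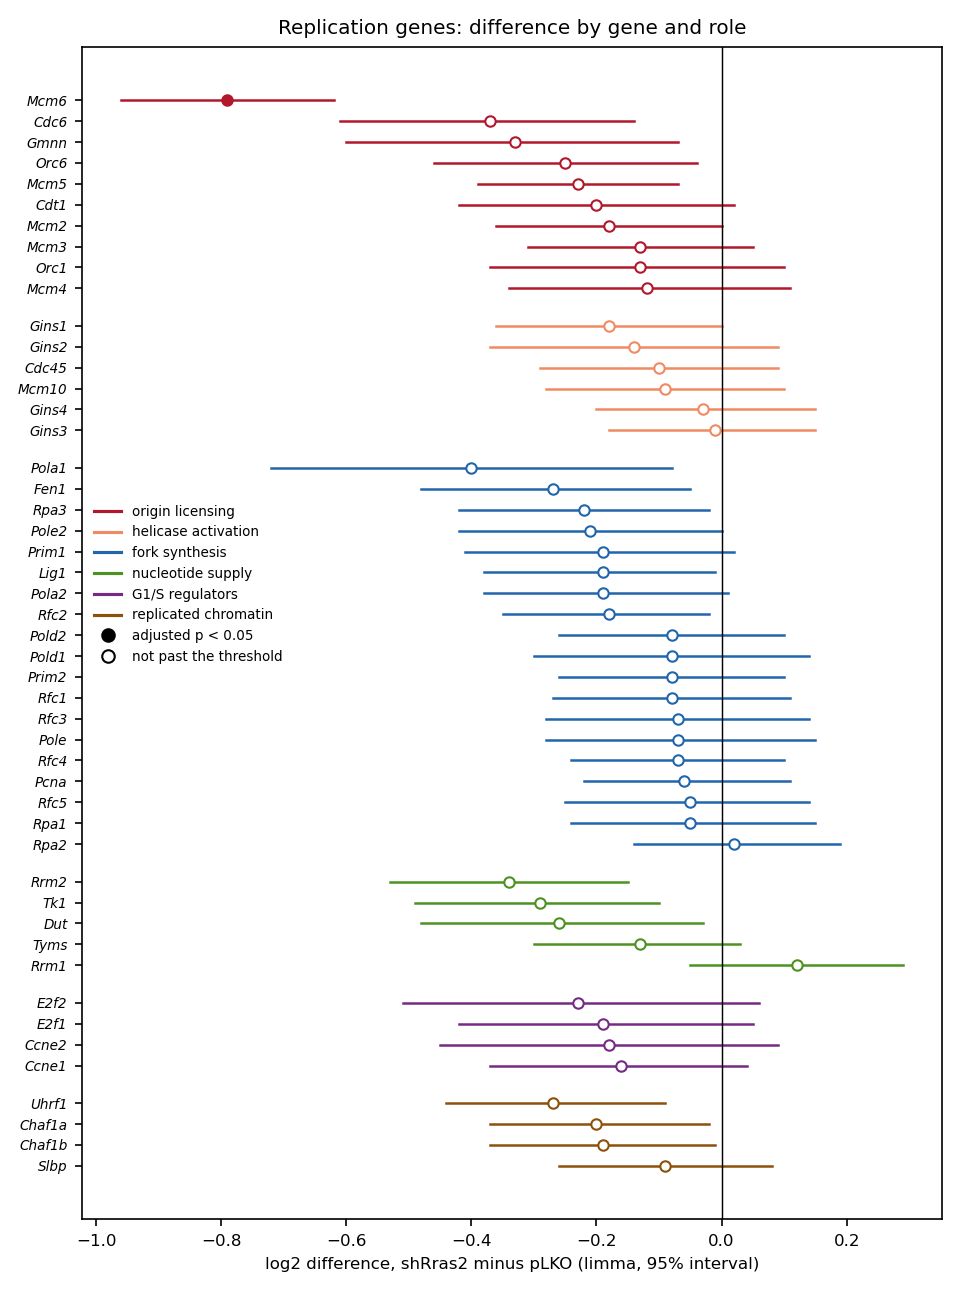
Log2 difference (shRras2 minus pLKO, x axis) of each of the 48 measured replication genes, ordered by role, with its 95% interval from limma. Filled points passed an adjusted p under 0.05, which Mcm6 alone did, and 46 points lie left of 0.

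Licensing genes held the largest difference and had a median of -0.22 over 10 genes, all 10 of them below 0. The MCM2-7 ring is built from 6 related subunits in equal number, of which 5 were measured. Mcm6 read 11.06, 11.03 and 11.03 on the pLKO arrays and 10.17, 10.30 and 10.28 on the shRras2 arrays. The controls were within 0.03 of each other, and all 3 knockdown arrays lay well below them. The difference was -0.79 ± 0.08 (SE; limma adjusted p = 0.00119), or 57.9% of the control signal with a 95% interval of 51.4 to 65.3%. It passed in all 6 fits that left out 1 array (adjusted p 0.00237 to 0.00864), and 0.226% of all genes had a lower difference.

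The other measured ring subunits lay lower by much less. Mcm5 read 10.48, 10.45 and 10.47 in controls and 10.26, 10.23 and 10.23 in the knockdown, with groups that did not overlap and a difference of -0.23 ± 0.07 (limma adjusted p = 0.117). Mcm2 read 10.82, 10.80 and 10.91 against 10.60, 10.66 and 10.73, and Mcm3 read 10.76, 10.88 and 10.73 against 10.62, 10.67 and 10.69. Their groups did not overlap either, though the gap for Mcm3 was narrow, and the differences were -0.18 ± 0.08 and -0.13 ± 0.08 (limma adjusted p = 0.256 and 0.413). Mcm4 read 10.49, 10.50 and 10.51 against 10.18, 10.52 and 10.45, so array 5 lay above the controls and arrays 4 and 6 below them (difference -0.12 ± 0.10). The 95% intervals of the remaining signal were 76.3 to 95.5% for Mcm5, 77.9 to 99.9% for Mcm2, 80.8 to 103% for Mcm3 and 78.9 to 108% for Mcm4, all above that of Mcm6.

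**Figure D2:**
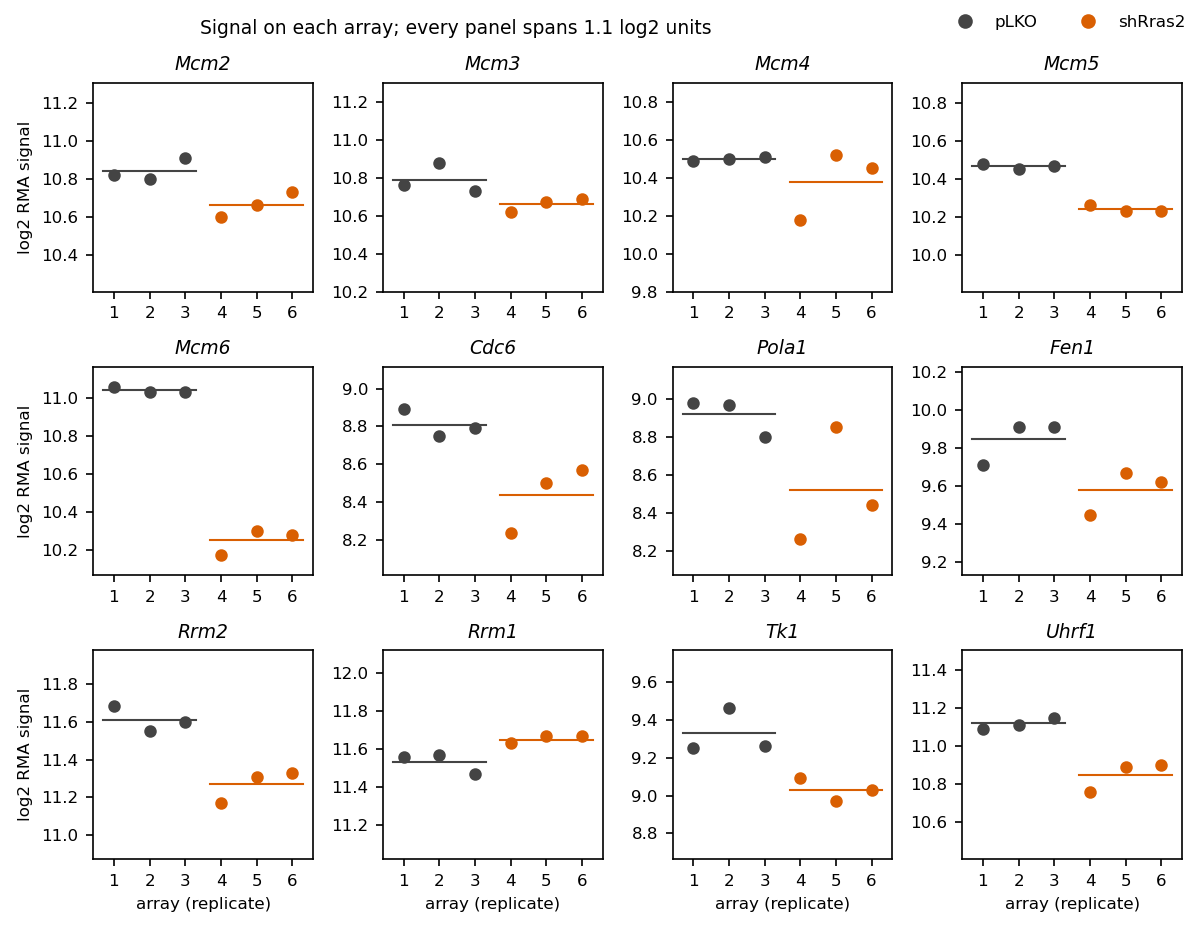
Log2 RMA signal (y axis) of 12 replication genes on each array, with controls 1 to 3 in grey and knockdown arrays 4 to 6 in orange, and lines at the group means. Each panel spans the same range of log2 units, so the gap for Mcm6 (11.04 against 10.25) can be set beside the smaller ones for Mcm2 to Mcm5 and the opposite order for Rrm1.

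The loading factors followed with values that missed the threshold. Cdc6, the ATPase that brings the ring to the origin, read 8.89, 8.75 and 8.79 in controls and 8.24, 8.50 and 8.57 in the knockdown. The groups did not overlap, and the difference was -0.37 ± 0.10 (limma adjusted p = 0.0754). Its partner Cdt1 read 10.43, 10.24 and 10.48 against 10.04, 10.27 and 10.23, with overlap at array 5 (difference -0.20 ± 0.10). Geminin (Gmnn), the inhibitor of Cdt1, lay below the negative-control percentile in both groups and differed by -0.33 ± 0.12 (limma adjusted p = 0.153). Of the origin recognition subunits, Orc6 differed by -0.25 ± 0.09 without overlap and Orc1 by -0.13 ± 0.10 with overlap.

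Helicase activation genes had a median of -0.10 over 6 genes, which was -0.06 without control array 3 or without knockdown array 4. None passed the threshold in limma, and 1 (16.7%) was lower at an unadjusted p under 0.05. At that p 10% of all genes and 15.3% of bright genes were lower, so this share lies near the background. Gins1 read 8.11, 8.11 and 7.96 in controls and 7.85, 7.90 and 7.89 in the knockdown, without overlap (difference -0.18 ± 0.08, limma adjusted p = 0.253). It was dim, with a knockdown mean of 7.88, just below the negative-control percentile of 7.92. Gins2 read 9.44, 9.35 and 9.23 against 9.16, 9.08 and 9.37, where array 6 sat among the controls (-0.14 ± 0.10). The other 2 GINS subunits were close to 0, Gins3 at -0.01 ± 0.07 and Gins4 at -0.03 ± 0.08, each with a 95% interval that ended at 111% of the control signal, and in the fits without 1 array they ranged from -0.04 to 0.01 and from -0.06 to 0.01. Cdc45, which joins GINS and the ring, differed by -0.10 ± 0.08, and the initiation factor Mcm10 by -0.09 ± 0.08.

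Fork synthesis genes, the largest role with 19 members, had a median of -0.08, which was -0.13 without knockdown array 5, and 18 lay below 0. None passed in limma, and 5 (26.3%) did at an unadjusted p under 0.05, all lower. At that p 10% of all genes and 15.3% of bright genes were lower. Pola1, the catalytic subunit of the polymerase alpha that starts each new strand with primase, had the widest spread. It read 8.98, 8.97 and 8.80 in controls and 8.26, 8.85 and 8.44 in the knockdown, so array 5 lay within the controls while arrays 4 and 6 lay below them. The difference was -0.40 ± 0.14 (limma adjusted p = 0.167), and it passed in 1 of the 6 fits without 1 array. That was the fit without array 5 (-0.56, adjusted p = 0.0204), while without array 4 it was -0.27 (0.385) and in the other 4 fits the adjusted p was 0.227 to 0.345. The other subunits of that complex differed by -0.19 ± 0.09 (Pola2), -0.19 ± 0.09 (Prim1) and -0.08 ± 0.08 (Prim2).

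Genes that finish the lagging strand lay lower without overlap. Fen1, the flap endonuclease, read 9.71, 9.91 and 9.91 in controls and 9.45, 9.67 and 9.62 in the knockdown (difference -0.27 ± 0.09, limma adjusted p = 0.161). The ligase gene Lig1 differed by -0.19 ± 0.08 (limma adjusted p = 0.238). The sliding clamp gene Pcna, also without overlap, had a much smaller gap and read 12.15, 12.17 and 12.12 against 12.08, 12.11 and 12.10, a difference of -0.06 ± 0.07 and 96.3% of the control signal (95% interval 86.0 to 108%). Among the 5 clamp loader genes, Rfc1, Rfc3, Rfc4 and Rfc5 were between -0.08 and -0.05, with Rfc3 below the negative-control percentile, and Rfc2 differed by -0.18 ± 0.07 without overlap (limma adjusted p = 0.218).

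Polymerase and single-strand binding genes held differences of unlike size. The delta and epsilon polymerase genes Pold1, Pold2 and Pole differed by -0.08 ± 0.10, -0.08 ± 0.08 and -0.07 ± 0.09, while the accessory subunit gene Pole2 differed by -0.21 ± 0.09 without overlap. In the RPA trimer, the single-strand binding protein, Rpa3 differed by -0.22 ± 0.09 without overlap, Rpa1 by -0.05 ± 0.09 and Rpa2 by 0.02 ± 0.07. None of these differences passed, and whether subunits of 1 complex differ from each other was not tested.

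Nucleotide-supply genes had a median of -0.26 over 5 genes, with members on both sides of 0. Rrm2, the small subunit of ribonucleotide reductase and the one known to be made mainly in S phase, read 11.68, 11.55 and 11.60 in controls and 11.17, 11.31 and 11.33 in the knockdown. The groups did not overlap, and the difference was -0.34 ± 0.08, which just missed the threshold (limma adjusted p = 0.0522). It passed under 5 of the 8 other ways of processing all 6 arrays (adjusted p 0.00167 to 0.0491) and in 0 of the 6 fits without 1 array. Rrm1, the large subunit, went the other way without overlap, with 11.56, 11.57 and 11.47 against 11.63, 11.67 and 11.67 (0.12 ± 0.07, limma adjusted p = 0.438).

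Thymidine kinase Tk1, the salvage enzyme, read 9.25, 9.46 and 9.26 in controls and 9.09, 8.97 and 9.03 in the knockdown, again without overlap (-0.29 ± 0.09, limma adjusted p = 0.101). Tyms, which makes thymidylate anew, read 10.42, 10.34 and 10.38 against 10.24, 10.26 and 10.24. Its arrays were tight and did not overlap, but the difference was small (-0.13 ± 0.07, limma adjusted p = 0.379). Dut, which removes dUTP, differed by -0.26 ± 0.10, with array 5 among the controls.

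The G1/S regulators had a median of -0.18 over 4 genes, and none passed in limma, even at an unadjusted p under 0.05. E2f1 read 9.14, 9.16 and 9.35 in controls and 9.06, 9.16 and 8.86 in the knockdown, with overlap at array 5 (-0.19 ± 0.10). E2f2 lay below the negative-control percentile in both groups, reading 6.90, 7.06 and 7.29 against 6.72, 6.78 and 7.08 (-0.23 ± 0.13). The cyclin E genes, whose products activate CDK2 at the entry to S phase, differed by -0.16 ± 0.09 (Ccne1, with 10.07, 10.04 and 10.07 against 9.89, 10.04 and 9.76) and -0.18 ± 0.12 (Ccne2, with 8.78, 8.65 and 8.59 against 8.28, 8.74 and 8.45). In both, array 5 was level with the controls; for Ccne1 it lay below the lowest control only before rounding.

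Genes for the chromatin that forms behind the fork had a median of -0.19 over 4 genes. Uhrf1, which carries DNA methylation over to the new strand, read 11.09, 11.11 and 11.15 in controls and 10.76, 10.89 and 10.90 in the knockdown, without overlap (-0.27 ± 0.08, limma adjusted p = 0.0938). The CAF-1 histone chaperone genes Chaf1a and Chaf1b differed by -0.20 ± 0.08 and -0.19 ± 0.08, also without overlap. For Chaf1a the arrays read 9.41, 9.30 and 9.43 against 9.21, 9.18 and 9.17. Slbp, which binds histone mRNA, differed by -0.09 ± 0.08 with overlap.

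Among the 3 knockdown arrays, array 4 was the lowest more often than the others. It was the lowest of the 6 arrays for 26 of the 48 genes, array 6 for 11 and array 5 for 9. Array 4 also led over all 19505 genes, as the lowest for 3978 of them, against 3475 for array 5 and 3039 for array 6. Array 4 thus led in both counts, for most of the members but for a minority of all genes, and arrays 5 and 6 changed places. Whether this lead is particular to the members was not tested. Their median deviation from each gene's 6-array mean was -0.11, -0.05 and -0.06 on arrays 4, 5 and 6, against 0.06 to 0.08 on the controls. Array 4 also had the least Rras2 signal left and array 5 the most, although 3 arrays allow no test of that order. The median difference over members was -0.14 without array 4 and -0.18 without array 5. In the G1/S regulators array 5 was at 0.05, the level of control array 1, and arrays 4 and 6 at -0.17 and -0.18.

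**Figure D3:**
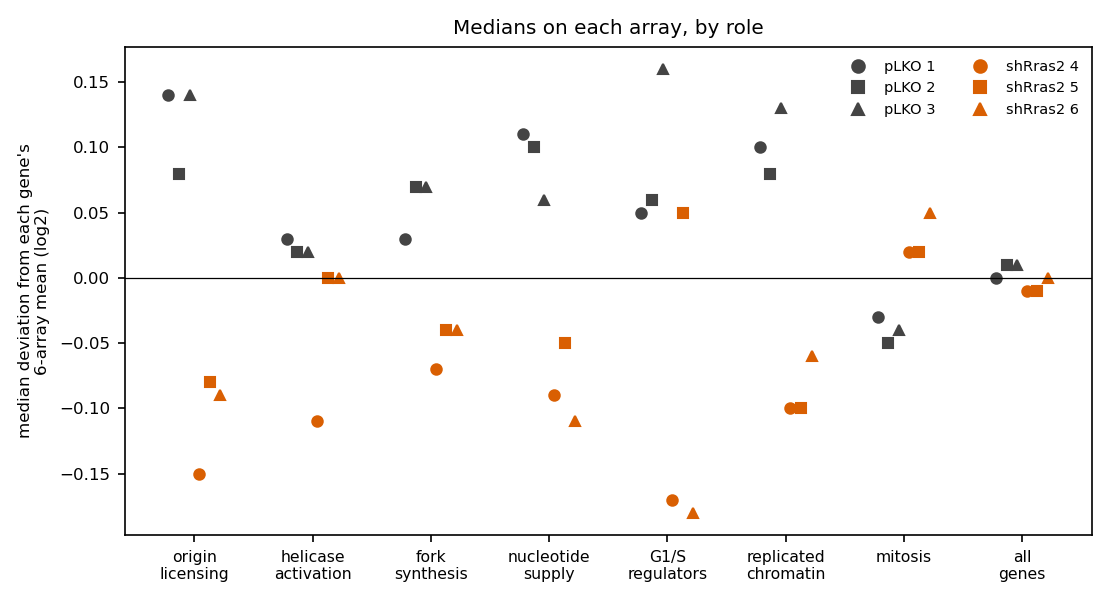
Median deviation of each role's genes from their own 6-array mean (y axis, log2) on each array, with mitosis genes and all genes beside them. Control arrays are grey and knockdown arrays orange; the licensing medians are 0.08 to 0.14 on the controls and -0.15 to -0.08 on the knockdown arrays, while mitosis genes have the opposite order.

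No gene of the set was shown to lose as much as Rras2 itself. The lower end of the 95% interval was 51.4% of the control signal for Mcm6 and at least 60.7% for the other 47 genes, and the upper end was at most 122%. For those 47 genes the limit is 3 arrays a group, with a median SE of 0.0961 over all genes. The interval lay wholly below no difference for 18 of the 48 genes. These are the genes that were lower at an unadjusted limma p under 0.05, where 10% of all genes and 15.3% of bright genes were.

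Other genes of replication, from a list of 99 names of which 94 were measured, ranged from -0.55 to 0.45. In limma 9 fell, 2 rose and 83 did not pass, with a median of -0.07, and 70 lay below 0. That is 9.57% lower, against 2.22% of all genes and 3.93% of bright genes. Nucleotide synthesis held 3 of the falls: Dctd, which makes dUMP and read 10.44, 10.28 and 10.61 against 9.73, 10.09 and 9.86, by 0.55 (adjusted p = 0.0338), the purine enzyme gene Gart by 0.44 (0.0178) and the pyrimidine enzyme gene Umps by 0.36 (0.0442). Cad, which opens pyrimidine synthesis, had a difference of -0.54 ± 0.13 and did not pass (0.0527). Samhd1, which breaks deoxynucleotides down, went the other way and rose by 0.45 (0.0462).

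At the fork, Wdhd1, which links polymerase alpha to the helicase, fell by 0.40 (limma adjusted p = 0.0391). Poldip2, a polymerase delta partner, fell by 0.37 (0.0462) and the RNase H2 subunit gene Rnaseh2a by 0.34 (0.0400). Among the regulators, Cdc25a, the phosphatase that activates CDK2, with 9.26, 9.21 and 9.37 against 8.63, 8.87 and 8.76, fell by 0.53 (0.0128), E2f4 by 0.37 (0.0459) and the cyclin A gene Ccna2 by 0.32 (0.0452), and Tfdp2, an E2F partner, rose by 0.39 (0.0315). Of the 15 other licensing and firing genes 0 passed in limma and 2 (13.3%) were lower at an unadjusted p under 0.05. At that p 10% of all genes and 15.3% of bright genes were lower, so this share lies near the background. The 2 licensing and firing genes were Mcmbp, which binds MCM proteins (-0.29 ± 0.08), and the helicase gene Recql4 (-0.24 ± 0.10). Recql4 lay below the negative-control percentile in both groups and was named here after its value was seen. Rif1, below the negative-control percentile, differed by -0.35 ± 0.17, with groups that overlapped. Of 14 other chromatin genes 0 passed and 2 (14.3%) were lower at that p, also near the background. They were Asf1b at -0.28 ± 0.09 and Nasp at -0.23 ± 0.10.

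These calls rest on few arrays. Leaving out arrays in turn removed each of the 11 at least 1 time: Cdc25a passed in 3 of the 6 fits, Dctd and Gart in 2, and E2f4 and Tfdp2 in 0. The number of falls was 1, 3 and 0 without control arrays 1, 2 and 3 and 0, 12 and 0 without knockdown arrays 4, 5 and 6, and the number of rises was 0, 0, 0, 0, 1 and 0.

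Mitosis genes, which act later in the same cycle, lay mostly on the other side of 0. Of 28 measured, 22 were above 0, with a median of 0.07. The share below 0 was 21.4%, where it was 53.2% over all genes. The proliferation marker Mki67 read 12.47, 12.34 and 12.43 in controls and 12.37, 12.53 and 12.47 in the knockdown (0.04 ± 0.08). Nusap1, a spindle protein gene, rose by 0.49 (limma adjusted p = 0.0111, past in all 6 fits without 1 array), and 0 fell. That 1 call in 28 lies near the 2.99% of all genes called higher. At an unadjusted limma p under 0.05, 0 were lower and 1 higher, where 10% and 9.11% of all genes were. Kif20a differed by 0.19 ± 0.08 and did not pass. The median of the mitosis genes was 0.03 to 0.10 under the other ways of scaling the arrays, and that of the replication genes -0.22 to -0.15. The difference between the 2 groups of genes was not tested.

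**Figure D4:**
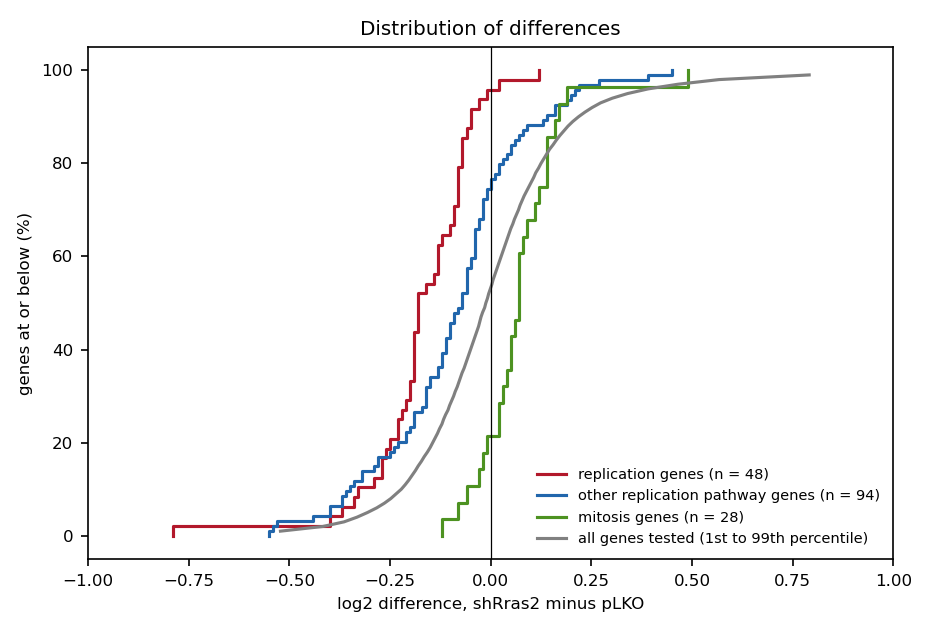
Share of genes (y axis, percent) at or below each log2 difference (x axis, shRras2 minus pLKO) for the 48 replication genes, 94 other replication genes, 28 mitosis genes and all genes tested. The curve of the replication genes lies left of that of all genes (medians -0.18 and -0.01) and that of the mitosis genes right of it (0.07).

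The E2F words of the promoters printed above were set beside the differences. The 5 genes that held one were Mcm6, Pola1, Cdc6, Mcm5 and Gins3. Of these, 3 had the lowest differences of the set (Mcm6, Pola1 and Cdc6 at -0.79, -0.40 and -0.37), while Mcm5 was at -0.23 and Gins3 at -0.01. The median difference was -0.37 for the 5 genes (range -0.79 to -0.01) and -0.17 for the 34 genes without a word (range -0.34 to 0.12). By CCAAT the medians were -0.13 for the 24 genes with it and -0.19 for the 15 without. These genes share the same 6 arrays, and the values are a description with no test.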

How the data were processed

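In all, 6 arrays were used, each with biotin-labelled cRNA from Trizol-extracted total RNA of 1 sample. Their deposited values are on the log2 scale; the submitters' processing notes name RMA and R 3.6.3. RMA corrects background, quantile normalizes arrays and summarizes probes into probe sets. Package versions and filters were not stated in those notes as given here. Of 29129 probe sets, 22206 were transcript probe sets, and the platform annotation given here names 19572 of them, each with 1 symbol. Each gene was read from its brightest probe set (mean of 6 arrays), giving 19505 genes; each of the 48 members had 1 probe set. Promoters are RefSeq's, GRCm38.p6, matched by symbol.

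The functions lmFit and eBayes of limma 3.58.1 (under R 4.3.3) fitted all genes together, with two-sided tests of 3 against 3 arrays. Benjamini-Hochberg adjustment ran over the 19505 genes, and calls needed an adjusted p under 0.05. Group values are means over 3 arrays, errors on differences are SEs, and no detection calls came with the values. The number of arrays limits the precision. The script was tested on simulated data. Members, roles, lists and settings were chosen with earlier results of these data known, so members are described by counts and medians without a set test. Values on every array were given for called members, Mcm2 to Mcm6 and the 2 largest differences of each role. The same was done for Cdc6, Cdt1, Pcna, Rrm2, Tyms, E2f1, Ccne1 and Ccne2. Of the other replication genes and mitosis genes, called ones and the 2 largest differences of each list were named. Among these, array values were given for Dctd and Cdc25a. Rrm1 and Mki67, and the remaining members and markers, were named outside that rule. Alternatives were quantile normalization repeated, centring on array medians, cyclic loess, leaving out the dimmest 30% of genes, averaging probe sets, testing every transcript probe set, eBayes with trend and robust settings, array weights, and leaving out each array.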

Additional observations from a re-analysis of the deposited data

How the results depend on the processing

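Mcm6 stayed lower and past the threshold in all 14 alternatives, and Rras2 too. The count of members past the threshold, 1 in the reported fit, was 2 when quantile normalization was repeated, 2 after centring on array medians, 2 with array weights, 3 without the dimmest 30% of genes, 6 with trend and robust settings, and 1 to 2 when each array was left out. Rrm2 was among the genes added in each of those settings on all 6 arrays, Cdc6 also without the dimmest genes and, with Mcm5, Tk1 and Uhrf1, under trend and robust settings, and Pola1 the one added without knockdown array 5. The median of the members was -0.22 after centring, -0.15 with cyclic loess and -0.18 to -0.14 without 1 array. After centring, the medians of licensing, fork, nucleotide-supply and chromatin genes were -0.26, -0.12, -0.30 and -0.23, and cyclic loess gave -0.17 for the chromatin genes. The helicase activation median was -0.14 after centring and -0.12 to -0.06 without 1 array. Without 1 array, the fork genes ranged from -0.13 to -0.08, the nucleotide-supply genes from -0.30 to -0.19, and the chromatin genes from -0.21 to -0.17. Among the other replication genes, falls numbered 5 with cyclic loess, 16 with trend and robust settings and 0 to 12 without 1 array, against 9; rises numbered 0 after centring and 0 to 1 without 1 array, against 2. The cause of these changes was not tested. Over all genes, calls numbered 1908 with trend and robust settings and 392 to 1136 without 1 array, against 1017. Centring moved the median of all genes from -0.01 to -0.05. The 33 single genes recomputed under every alternative kept their direction. Of the other members, Gins3, Gins4, Rfc3 and Rpa1 crossed 0 when 1 array was left out, each reaching 0.01. Rescaling changed some directions too. The count of members below 0 was 46 in the reported fit, 44 with cyclic loess and 47 after centring. Without 1 array it was 44 to 46. No paired analysis was possible because the groups share no replicate number.

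Signals below the negative-control percentile, as for Gmnn, E2f2 and Rfc3 and for Gins1 in the knockdown, are compressed, so their differences can be understated.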
